A study of Homo sapiens with 24 samples.

Results

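The proteasome is the enzyme complex that degrades ubiquitin-tagged proteins in the nucleus and cytosol. Its barrel-shaped core particle is built of rings of alpha subunits, which gate the channel, around rings of beta subunits, of which PSMB5, PSMB6 and PSMB7 carry the proteolytic sites. Interferon signaling induces PSMB8, PSMB9 and PSMB10, which replace these catalytic subunits and form the immunoproteasome, a form of the core that favors peptides suited to antigen presentation. A regulatory particle of ATPases (PSMC genes) and non-ATPase subunits (PSMD genes) binds, deubiquitinates, unfolds and feeds substrates into the core, and dedicated chaperones assemble the parts. The degrader dTAG-13 itself acts through the ubiquitin-proteasome pathway.

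The genes described here are the protein-coding genes whose symbol starts with PSM followed by a letter from A to G and a number. The rule finds 50 genes among the 60605 identifiers of the count table. Of these, 48 encode subunits, activators, an inhibitor or assembly chaperones of the proteasome. They are 8 alpha and 8 beta core subunits, 3 inducible core subunits, 6 base ATPases, 11 non-ATPase subunits of the regulatory particle, 5 activators or inhibitors and 7 chaperones. The other 2, *PSMC3IP* and *PSME3IP1*, are named after proteins they bind and are given apart. PRO-seq (precision run-on sequencing) maps engaged RNA polymerases through the RNA they are making, and a gene's count therefore measures transcription in progress rather than mature RNA. It was performed in Clones 28, 35 and 39 of T47D_dTAG_TRPS1, lines made from the estrogen receptor-positive luminal breast cancer line T47D by inserting a degron tag into endogenous *TRPS1*, a gene for a GATA-type repressor, so that these clones express TRPS1 only in tagged form. All cells grew in serum with insulin. Each clone was treated for 90 minutes with vehicle DMSO or with 100 nM dTAG-13, the small molecule that triggers degradation of the tagged protein, in 4 replicates, which gives 24 libraries in 6 groups. Each clone is a single line, so the replicates are cultures of that line, and a difference between clones cannot be told apart from any other difference between these lines.

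Total counts ranged from 3226718 to 9575803 per library. The targeted gene *TRPS1* had 5183 to 9296 CPM (reads of a gene relative to the library total, scaled by the TMM method). Since dTAG-13 removes the protein and leaves the gene, this does not check the labels. All 9 luminal markers examined were transcribed in every library, the lowest being *KRT18* at 75.9 CPM or more, whereas the basal keratin *KRT5* did not exceed 0.312 CPM. Of the markers of other cell types, the fibroblast collagen gene *COL1A1* reached 15.5 CPM, and the other 8 reached at most 6.44 CPM (*ZEB1*).

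Of the 48 proteasome genes, 46 passed the filter on low counts. The exceptions were the variants of other tissues. *PSMA8*, the alpha subunit of the testis, had between 0 and 11 reads per library, and *PSMB11*, the beta subunit of the thymus, had 2 reads in each of 2 libraries and 0 reads in the other 22. These 2 genes were therefore near the limit of detection. Per kilobase of gene span, the median of the 46 genes was 2.80 CPM, against 1.05 CPM for the 14905 protein-coding genes that passed, and 40 of the 46 were above that median. Their percentiles among the protein-coding genes ran from 19.5 to 96.5 with a median of 82. The base ATPases had the highest median of the roles with more than 3 genes, 4.02 CPM per kilobase, followed by the alpha subunits with 3.29. The median of the beta subunits was 2.77, that of the non-ATPase subunits 2.61 and that of the chaperones 2.34 CPM per kilobase.

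**Figure D1:**
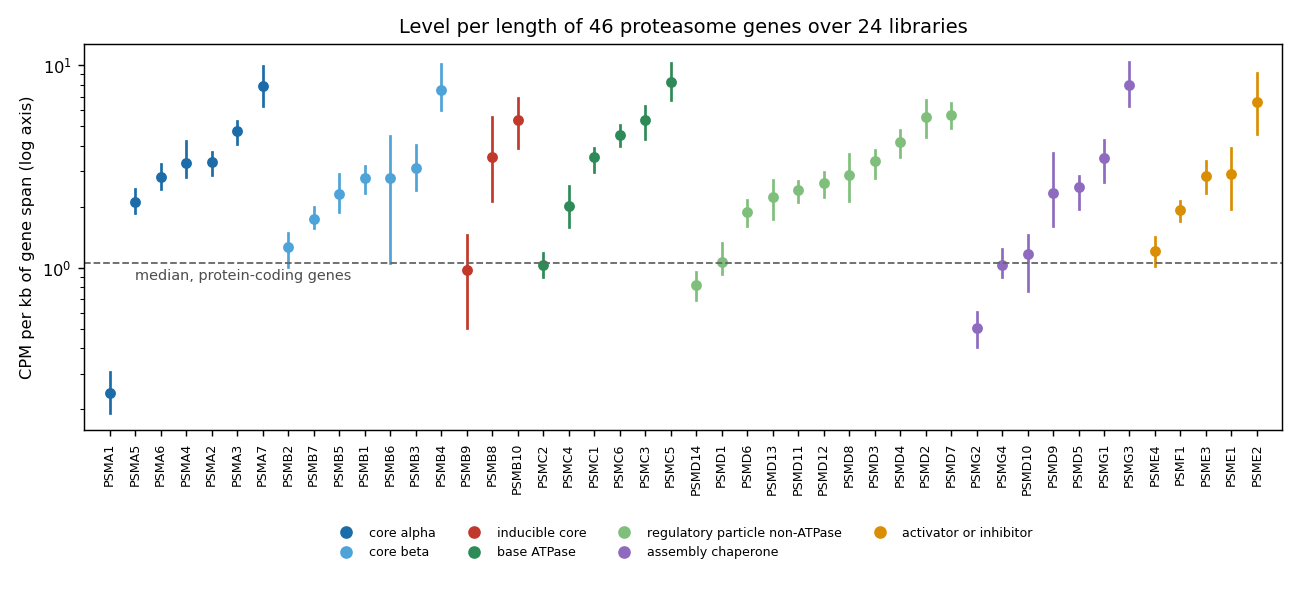
The level of each proteasome gene, in CPM per kilobase of gene span on a log axis, with a point at the mean over 24 libraries, a line from the lowest to the highest library and colors for the role. The dashed line is the median of the protein-coding genes that passed the filter, 1.05, and 40 of the 46 genes lie above it.

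The highest level per length was that of *PSMC5*, a base ATPase, with 8.28 CPM per kilobase (SD 1.07 over 24 libraries), followed by *PSMG3*, a chaperone of core assembly, with 8.02 (SD 1.10), and *PSMA7*, an alpha subunit, with 7.92 (SD 0.885). These means lie closer together than 1 SD of any of them. The lowest levels were those of *PSMA1*, an alpha subunit, with 0.242 CPM per kilobase, *PSMG2*, the partner of *PSMG1* in the chaperone of alpha ring assembly, with 0.503, and *PSMD14*, the deubiquitinase of the regulatory particle, with 0.82. The low place of *PSMA1* rests on its annotated span of 138762 bp, of which the canonical transcript covers 15511 bp. Divided by the canonical span, its level was 2.16 CPM per kilobase. For *PSMB9* the gene span of 15716 bp likewise compares with a canonical span of 5660 bp. For *PSMG2* the spans are 70903 and 22699 bp, whereas for *PSMD14* both are 103293 bp. The order at the top also depended on the span. Divided by the canonical span, *PSMG3* was highest with 10.9 CPM per kilobase, followed by *PSMC5* with 8.80, *PSME2* with 8.57, the chaperone *PSMG4* with 8.13 and *PSMA7* with 7.97. *PSMG4* moved most in this group, from 1.03, since its gene span of 71971 bp compares with a canonical span of 9103 bp.

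Degradation of TRPS1 for 90 minutes was followed by no detectable change of any proteasome gene. With the 3 clones together, 0 of the 46 genes passed an adjusted p of 0.1 in the quasi-likelihood test of edgeR, adjusted by Benjamini and Hochberg's method over 22326 genes, which is the test behind every adjusted p given here. The background was 123 genes, or 0.551% of all genes tested. At an unadjusted p under 0.05 there were 2 of the 46 proteasome genes and 1411 (6.32%) of all genes. The log2 fold changes of the 46 genes ran from -0.13 to 0.12 with a median of -0.017, and the median over all genes was -0.0018. By role the medians were -0.020 for the alpha subunits, -0.0070 for the beta subunits, -0.0041 for the inducible subunits, -0.027 for the ATPases, -0.018 for the non-ATPase subunits, -0.0064 for the chaperones and 0.011 for the activators and inhibitor. With the replicate number as a block, 0 of 46 passed against a background of 521 genes (2.33%). The study's methods collect the treatments of a replicate simultaneously. Same-numbered libraries of a clone were taken as such a replicate, so this block pairs DMSO with dTAG-13.

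**Figure D2:**
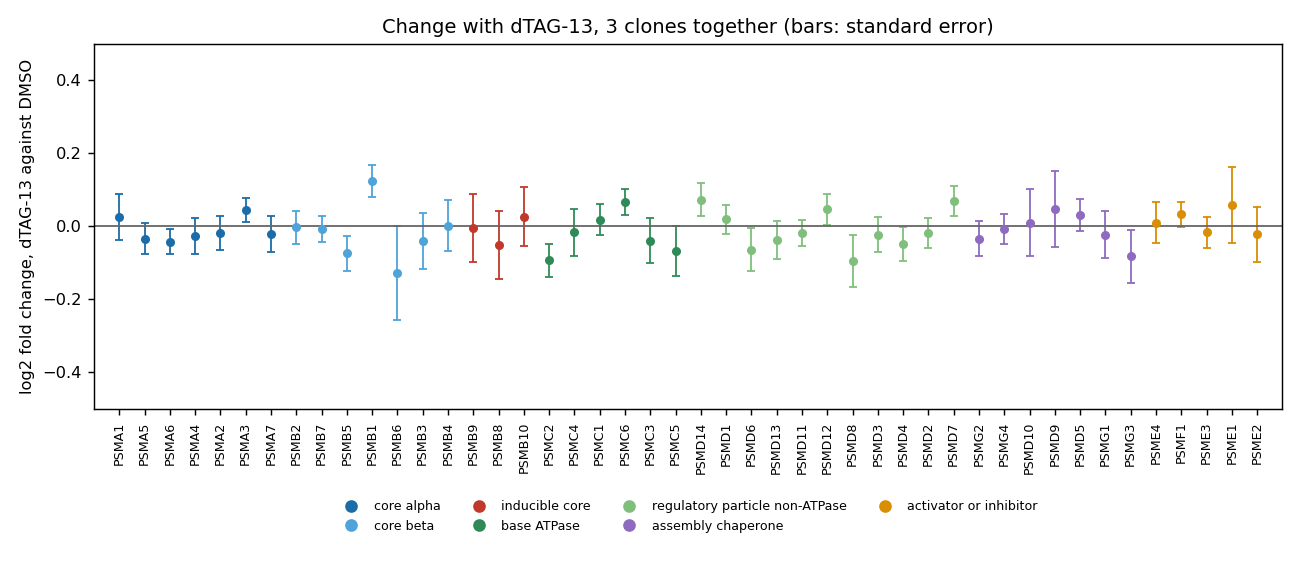
Log2 fold change with dTAG-13 against DMSO for the 46 proteasome genes, with the 3 clones together and bars of 1 standard error, grouped and colored by role. The values lie between -0.13 and 0.12, and 0 of 46 passed an adjusted p of 0.1.

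The smallest p belonged to *PSMB1*, a beta subunit without a catalytic site. In DMSO its CPM was 49.2, 51.5, 47.3 and 44.6 in Clone 28, 50.8, 46.7, 52.0 and 48.3 in Clone 35, and 50.5, 42.5, 43.3 and 51.1 in Clone 39, in the order of replicates 1 to 4. In dTAG-13 it was 46.6, 48.6, 53.0 and 58.1 in Clone 28, 55.0, 51.5, 52.7 and 51.4 in Clone 35, and 56.5, 51.2, 54.3 and 52.3 in Clone 39. The dTAG-13 library was higher in 10 of 12 pairs, and the groups overlapped in Clones 28 and 35 but not in Clone 39. *PSMB1* had a difference of 0.12 on the log2 scale (standard error 0.044), with an adjusted p of 0.431, or 0.169 with the block. *PSMC2*, an ATPase, had -0.092 (standard error 0.045, adjusted p = 0.782) and was lower with dTAG-13 in 8 of 12 pairs. Standard errors of the 46 genes ran from 0.034 to 0.13 on the log2 scale with a median of 0.048. The widest was that of *PSMB6*, which had between 8 and 77 reads per library, so that its value of -0.13 leaves the most room for a change below detection.

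In each clone on its own, 0 of 46 genes passed in Clone 28, in Clone 35 and in Clone 39, where 12 (0.0537%), 0 (0.0%) and 0 (0.0%) of all genes did. At an unadjusted p under 0.05 there were 1, 0 and 2 proteasome genes, and 1078, 646 and 754 of all genes. DESeq2 called 0 of 46 with the clones together. The change with dTAG-13 also did not differ detectably between the clones, with 0 of 46 genes past the threshold, 1 at an unadjusted p under 0.05 and 0 (0.0%) of all genes, of which 407 had an unadjusted p under 0.05. In Clone 39 the smallest p was that of *PSMC2*, at -0.24 on the log2 scale (standard error 0.075, adjusted p = 1), and *PSMC2* also had the smallest p for a difference between the clones (adjusted p = 1). In Clone 28 it was that of *PSMD6*, a non-ATPase subunit, with -0.23 (standard error 0.097, adjusted p = 0.952), and in Clone 35 that of the ATPase *PSMC5*, with -0.23 (standard error 0.11, adjusted p = 1). None of the 33 other genes of the pathway examined passed with the clones together. These 33 were the subunits *ADRM1* and *SEM1*, assembly factors, transcriptional regulators of the proteasome, bound enzymes, shuttles, ubiquitin genes and interferon-linked genes.

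Some proteasome genes differed between the clones without degradation, and the largest log2 fold changes among those called were those of *PSMB6* and the 3 inducible subunits. In DMSO, Clone 39 against Clone 28 had 16 of 46 genes past the threshold (34.8%), where the background was 26.7% of all genes tested. Of the 16, 12 were higher in Clone 39 (26.1% of the 46, background 12.4%) and 4 were lower (8.7%, background 14.3%). Among the 14905 protein-coding genes alone, 14.8% were higher and 14.8% lower. With the replicate number as a block 22 of the 46 passed, against a background of 35.2% of all genes. All 3 inducible core subunits were higher. The alpha subunits had 4 higher and 1 lower of 7, the beta subunits 2 higher and 1 lower of 7, the ATPases 1 higher of 6, and the activators and inhibitor 2 higher and 1 lower of 5. Of the 11 non-ATPase subunits only *PSMD2* passed, and of the 7 chaperones 0 passed.

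*PSMB9*, the inducible subunit that takes the place of PSMB6, had 7.96, 8.59, 15.1 and 14.1 CPM in DMSO replicates 1 to 4 of Clone 28 and 14.2, 20.3, 22.9 and 20.2 CPM in Clone 39. Clone 35 lay between, with 12.6, 15.9, 14.5 and 16.6 CPM. Replicates 1 and 2 of Clone 28 were low and replicate 1 of Clone 39 reached into the range of Clone 28. *PSMB9* was higher in Clone 39 than in Clone 28 by 0.74 on the log2 scale (standard error 0.17, adjusted p = 0.00162). *PSMB8*, which takes the place of PSMB5, had 8.45, 9.22, 13.1 and 13.2 CPM in Clone 28, 9.54, 16.7, 15.2 and 17.3 CPM in Clone 35, and 12.8, 14.2, 22.1 and 17.8 CPM in Clone 39. Its groups also overlapped, through replicate 1 of Clone 39. *PSMB8* was higher in Clone 39 than in Clone 28 by 0.58 on the log2 scale (standard error 0.17, adjusted p = 0.0133).

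*PSMB10*, which takes the place of PSMB7, separated Clone 39 from the other clones without overlap in DMSO. It had 9.20, 10.3, 10.5 and 9.43 CPM in Clone 28, 10.0, 12.3, 13.6 and 12.9 CPM in Clone 35, and 15.6, 15.2, 15.5 and 16.0 CPM in Clone 39. In dTAG-13 the clones overlapped, with 10.5 to 13.4 CPM in Clone 28, 9.73 to 14.9 CPM in Clone 35 and 12.9 to 16.2 CPM in Clone 39. The log2 fold change in DMSO was 0.66 against Clone 28 (standard error 0.14, adjusted p = 6.73e-04) and 0.34 against Clone 35 (standard error 0.13, adjusted p = 0.0814). In dTAG-13 the difference from Clone 35 was 0.23 and did not pass (adjusted p = 0.295). Reads of *PSMB8*, *PSMB9*, the antisense RNA *PSMB8-AS1* and the peptide transporter gene *TAP1* may have been shared, since these genes overlap and no strand setting of the counting is given in the sources used here. Other annotated genes cover 15.2% of the span of *PSMB8*, 61.6% of that of *PSMB9* and 64.1% of that of *PSMB10*.

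**Figure D3:**
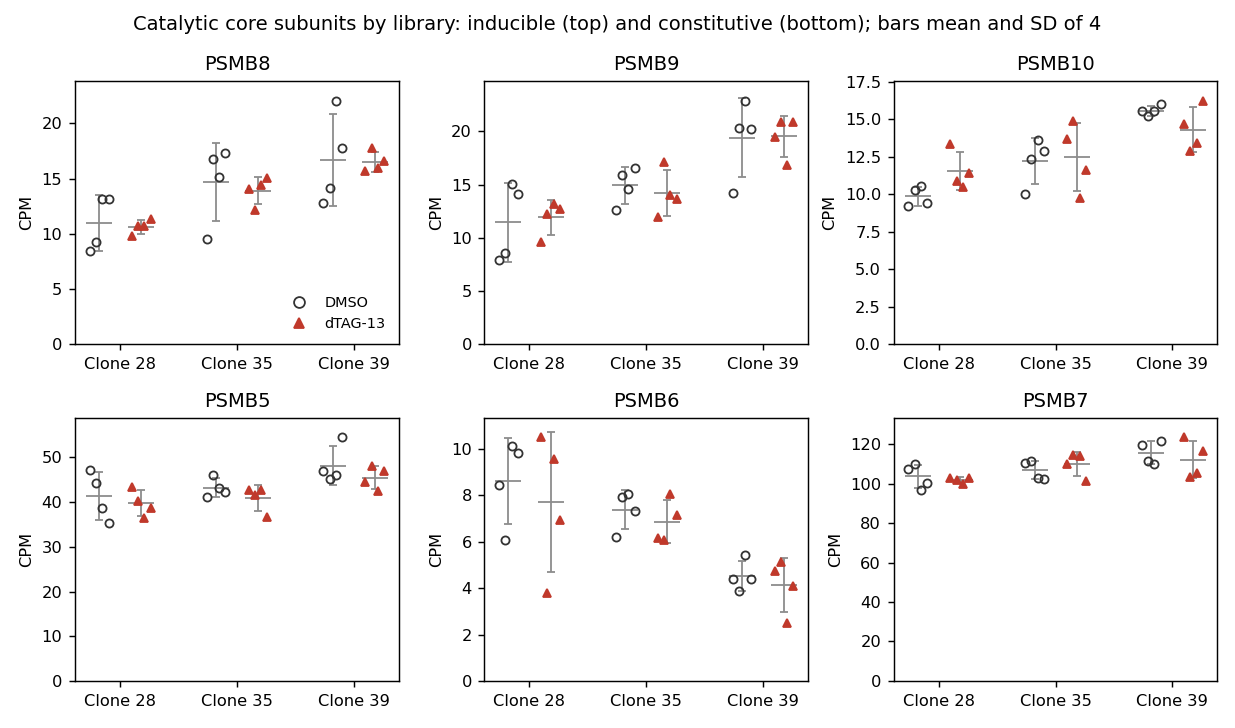
CPM of the inducible core subunits (top row) and the constitutive subunits they replace (bottom row) in every library, with open circles for DMSO, red triangles for dTAG-13 and grey bars for the mean and SD of 4 libraries. The inducible subunits were highest in Clone 39, where *PSMB6* was lowest, with 3.86 to 5.45 CPM in DMSO.

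*PSMB6*, the constitutive subunit with caspase-like activity, went the other way. It had 8.45, 6.08, 10.1 and 9.82 CPM in the DMSO libraries of Clone 28, from 29 to 50 reads, and 6.199, 7.95, 8.05 and 7.33 CPM in those of Clone 35. Clone 39 had 4.39, 3.86, 5.45 and 4.39 CPM, from 15 to 22 reads, and lay below all DMSO libraries of both other clones. For *PSMB6* the log2 fold change was -0.93 against Clone 28 (standard error 0.24, adjusted p = 0.00445) and -0.72 against Clone 35 (standard error 0.24, adjusted p = 0.0321). In dTAG-13 the ranges overlapped, since 1 library of Clone 28 had 3.79 CPM. The other constitutive catalytic subunits were slightly higher in Clone 39 than in Clone 28, *PSMB5* (chymotrypsin-like activity) by 0.23 on the log2 scale (standard error 0.088, adjusted p = 0.0637) and *PSMB7* (trypsin-like activity) by 0.16 (standard error 0.063, adjusted p = 0.0684). Within each library, the CPM of *PSMB9* divided by that of *PSMB6* averaged 1.32 in Clone 28 (SD 0.255, n = 4), 2.03 in Clone 35 (SD 0.187, n = 4) and 4.32 in Clone 39 (SD 0.852, n = 4) in DMSO. The lowest ratio of Clone 39 was 3.23 and the highest of the other clones was 2.26. In dTAG-13 the ratio was 4.05 to 6.75 in Clone 39, above the 0.909 to 3.23 of Clone 28 and the 1.74 to 2.83 of Clone 35. The ratio of *PSMB10* to *PSMB7* was 0.0954 (SD 0.0096), 0.115 (SD 0.018) and 0.135 (SD 0.0050) in the same order in DMSO, and that of *PSMB8* to *PSMB5* was 0.275 (SD 0.095), 0.339 (SD 0.076) and 0.347 (SD 0.091), with overlap between the clones. In dTAG-13 the ratio of *PSMB10* to *PSMB7* was 0.105 to 0.130 in Clone 28, 0.0853 to 0.130 in Clone 35 and 0.119 to 0.139 in Clone 39, and that of *PSMB8* to *PSMB5* was 0.225 to 0.293 in Clone 28, 0.291 to 0.410 in Clone 35 and 0.352 to 0.375 in Clone 39. The ratio of *PSMB10* to *PSMB7* thus overlapped between all clones in dTAG-13, whereas that of *PSMB8* to *PSMB5* was higher in each Clone 39 library than in each of Clone 28. These ratios do not correct for length, and they serve to compare clones, not genes.

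The lower transcription of *PSMB6* in Clone 39 went with that of its surroundings. Of the 58 tested genes within 1 Mb of *PSMB6* on chromosome 17, 50 were called lower in Clone 39 than in Clone 28 and 0 higher, with a median log2 fold change of -0.86. Against Clone 35, 50 of the 58 were again called lower and 0 higher (median -0.94). *PSMD2*, the non-ATPase scaffold subunit on chromosome 3, had 57.4, 52.4, 55.1 and 57.5 CPM in Clone 28, 59.4, 65.3, 60.7 and 61.1 CPM in Clone 35 and 47.5, 51.5, 46.05 and 46.1 CPM in Clone 39, whose libraries lay below all others in DMSO. Its log2 fold change was -0.22 against Clone 28 (standard error 0.076, adjusted p = 0.0355) and -0.37 against Clone 35 (standard error 0.074, adjusted p = 2.93e-04). Of the 34 tested genes within 1 Mb of *PSMD2*, 20 were lower than in Clone 28 and 0 higher (median -0.33). By contrast, the 71 genes around *PSMB8* and *PSMB9* on chromosome 6 had a median of -0.0085 with 9 higher and 5 lower, and the 71 genes around *PSMB10* on chromosome 16 had a median of 0.072. For the 14 called genes other than *PSMB6* and *PSMD2*, the median of the neighbors lay between -0.14 and 0.16. Among these, *PSMA7* had 0.21 with a neighbor median of 0.16, *PSMB7* 0.16 with 0.11 and *PSMA4* -0.23 with -0.14. For *PSMB5*, *PSMB8*, *PSMB9*, *PSMC4* and *PSME2* the neighbor median had the opposite sign to the gene. The neighborhoods were examined after the values were seen, and their part in the differences was not tested.

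The genes of the activator subunits, which cap the core in place of the regulatory particle, differed in opposite directions although PSME1 and PSME2 form a ring together. *PSME1* had 7.21, 5.66, 6.45 and 7.07 CPM in Clone 28 and 8.58, 10.8, 7.08 and 9.39 CPM in Clone 39, and *PSME2* had 24.1, 28.3, 34.2 and 38.5 CPM in Clone 28 and 19.4, 22.1, 25.3 and 29.6 CPM in Clone 39. Both genes overlapped between the clones. The log2 fold change of Clone 39 against Clone 28 was 0.45 for *PSME1* (standard error 0.19, adjusted p = 0.0947) and -0.38 for *PSME2* (standard error 0.14, adjusted p = 0.0467). The call of *PSME1* was lost in 18 of the 24 fits without 1 library. Its log2 fold change in these fits ran from 0.35 to 0.53. *PSME3*, the nuclear activator, was higher in Clone 39 by 0.21 (standard error 0.074, adjusted p = 0.0420). *PSME4*, the activator of spermatocytes and DNA repair, and *PSMF1*, an inhibitor of the core, had log2 fold changes of 0.0033 and 0.094 and did not pass.

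Among the remaining genes that differed between Clones 39 and 28, *PSMC4*, an ATPase, was higher by 0.38 (standard error 0.11, adjusted p = 0.0138), with 19.4, 17.0, 21.9 and 16.9 CPM in Clone 28 and 26.9, 20.8, 22.9 and 26.8 CPM in Clone 39. The ranges met at 1 library of each clone. The alpha subunit *PSMA4* was lower by 0.23 (-0.23, standard error 0.089, adjusted p = 0.0589), and its call was lost in 4 fits that left out 1 library. The alpha subunits *PSMA3*, *PSMA5*, *PSMA6* and *PSMA7* were higher by 0.16 to 0.21. Other annotated genes cover the whole span of *PSMA3* and of *PSMA6*. *PSMA3* had 118, 111, 124 and 117 CPM in the DMSO libraries of Clone 28 and 134, 141, 132 and 140 CPM in Clone 39. *PSMA6* had 104, 109, 106 and 105 CPM in Clone 28 and 127, 125, 112 and 111 CPM in Clone 39, and *PSMA5* 56.7, 52.2, 55.7 and 54.6 CPM against 66.8, 63.6, 62.1 and 57.7 CPM. The DMSO libraries of these 3 genes did not overlap between the clones, whereas in dTAG-13 those of all 3 did. Of the 4 genes, *PSMA3* kept its call in all 24 fits that left out 1 library and *PSMA7* in 7 of them. *PSMB6*, *PSMB8*, *PSMB9*, *PSMB10*, *PSMC4* and *PSMD2* were called in all 24 such fits. The number of proteasome genes called in these fits fell to 8 without Clone 28 replicate 4 in DMSO, 9 without Clone 39 replicate 2 and 10 without Clone 39 replicate 1. *PSME3IP1*, which is no subunit, was lower by 0.34 (-0.34, standard error 0.092, adjusted p = 0.00663). *PSMD9*, a chaperone of the base, had the largest difference among those that did not pass without the block, -0.45, and with the block its adjusted p was 1.66e-08.

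Compared in their dTAG-13 libraries, which is a separate set of cultures, Clones 39 and 28 differed in 9 of 46 proteasome genes. This share was below the background of 26.4% of all genes, whereas in DMSO the share of 34.8% was above its background of 26.7%. Of the 16 genes called in DMSO, 6 were called again: *PSMB6* at -0.86, *PSMB8* at 0.63, *PSMB9* at 0.71, *PSMB10* at 0.33, *PSME1* at 0.67 and *PSMD2* at -0.28. The adjusted p-values of these 6 ran from 0.00208 for *PSMB9* to 0.0942 for *PSMB10*. The other 3, named after their values were seen, were *PSMB4* with 0.35, *PSMG2* with -0.32 and *PSMD9* with -0.58, and *PSME2* had -0.22 with an adjusted p of 0.311. The PSMB8, PSMB9 and PSME1 libraries of Clone 39 lay above all those of Clone 28 in dTAG-13, with 15.7 to 17.8 against 9.79 to 11.4 CPM for *PSMB8*, 16.9 to 20.9 against 9.55 to 13.2 CPM for *PSMB9*, and 9.90 to 10.9 against 5.49 to 7.33 CPM for *PSME1*.

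**Figure D4:**
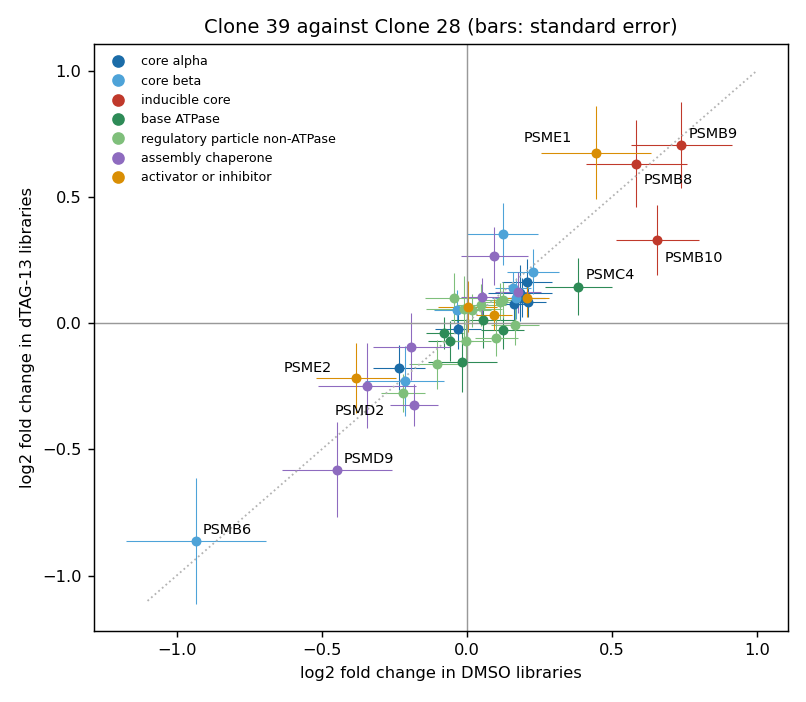
Log2 fold change of Clone 39 against Clone 28 for the 46 proteasome genes in the DMSO libraries (horizontal) and in the dTAG-13 libraries (vertical), with bars of 1 standard error, colors for the role and a dotted line where both are equal. *PSMB8*, *PSMB9*, *PSMB10* and *PSME1* were above 0 and *PSMB6* and *PSMD2* below 0 on both axes, each called in both.

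Clone 35 stood closer to Clone 28. In DMSO 1 of 46 genes passed, where the background was 5.25% of all genes, 2.24% higher and 3.01% lower. This gene was *PSME3*, with 48.5, 45.5, 53.1 and 50.7 CPM in Clone 28 and 65.3, 58.5, 59.7 and 53.6 CPM in Clone 35, all above Clone 28 and higher by 0.26 on the log2 scale (standard error 0.072, adjusted p = 0.0377). Its call was lost in 3 of 24 fits that left out 1 library, and in dTAG-13, with a background of 5.57%, 0 of 46 genes were called. With the block 6 of 46 passed in DMSO, against a background of 11.9%. They were *PSME3*, *PSMB8* (0.43), *PSMB9* (0.38) and the ubiquitin receptor *PSMD4* (0.19), which were higher, and *PSMB3* (-0.25) and *PSMD9* (-0.16), which were lower. Between Clones 39 and 35, 4 of 46 passed in DMSO, where the background was 22.6%. *PSMB10* was higher (background 9.64%), and *PSMB6*, *PSMD2* and the ATPase *PSMC6* (-0.17, adjusted p = 0.0577) were lower (background 12.9%). With RLE factors the split was 3 higher and 3 lower, and with library totals 0 higher and 3 lower. *PSMC6* had 109, 103, 93.0 and 98.6 CPM in Clone 35 and 91.0, 88.0, 86.9 and 91.5 CPM in Clone 39, which lay below all libraries of Clone 35 in DMSO and overlapped with them in dTAG-13. The call of *PSMB10* was lost in 7 of 24 fits that left out 1 library. With the block there were 12 of 46 against a background of 30.5%, and in dTAG-13 there were 6 of 46 against 21.5%. These comparisons share the libraries of a clone, so their values are not independent of each other.

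Of the 33 other genes of the pathway, 16 passed between Clones 39 and 28 in DMSO, 12 higher and 4 lower in Clone 39, where the background was 26.7% of all genes, 12.4% higher and 14.3% lower. Interferon-linked genes were among those higher. *NLRC5*, the transactivator of MHC class I genes, was higher by 0.82 (standard error 0.12, adjusted p = 1.21e-06), the peptide transporter genes *TAP1* by 0.44 and *TAP2* by 0.34, and the transcription factor *IRF1* by 0.34. In Clone 35, *NLRC5* (0.45, adjusted p = 0.0202) was higher than in Clone 28. For *NLRC5* and the 3 inducible subunits alike, Clone 35 stood between Clone 28 and Clone 39 in DMSO. The polyubiquitin gene *UBB* (-0.99, adjusted p = 6.15e-05), *NGLY1*, the glycanase that activates the proteasome regulator NFE2L1, and the chaperone-like assembly factor *PAAF1* were lower in Clone 39. *UBB* lies on chromosome 17 like *PSMB6*, and 26 of its 36 tested neighbors within 1 Mb were lower in Clone 39 than in Clone 28 and 0 higher, with a median of -0.69. *NFE2L2* was higher by 0.19 (adjusted p = 0.0185), and *RAD23B*, a shuttle of ubiquitinated proteins, by 0.27 (adjusted p = 0.00215).

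RefSeq's windows around the start sites (GRCh38.p14, 250 bases before to 50 after) cover 42 of the 48 genes with 51 windows, and they were searched on both strands for short motifs of factors known at proteasome and interferon-inducible promoters. The core of the antioxidant response element, TGACNNNGC, which NFE2L1 and NFE2L2 bind, was present in 15 of the 51 windows (29.4%), against 13.3% of all 35116 windows and 13.8% of those of protein-coding genes. CCAAT was present in 39.2% against 34.6% of all, and GGGCGG, a core of GC boxes, in 68.6% against 45.0% of all and 56.3% of protein-coding windows. GAAANNGAA, a core of interferon response elements added later, was present in 8 windows (15.7%) against 8.11% of all. These 8 belonged to *PSMA4*, *PSMB4*, *PSMB8*, *PSMB10*, *PSMC2*, *PSME1*, *PSME2* and *PSMG4*. TTCNNNGAA, also added later, was likewise present in 8 windows (15.7%), against 7.66% of all. A match is a string of letters and not a measured site. The stretches upstream of RefSeq's start sites of *PSMB9* (chr6:32853942-32854149, plus strand) and of *PSMB10* (chr16:67936863-67937100, minus strand) are shown because these genes differed most between Clones 39 and 28 among those that were higher. That of *PSMB9* lies inside the gene span used for its level (32844136 to 32859851), which begins further upstream than this start site. Both are written 5' to 3' along the gene with motif matches in capitals.
PSMB9: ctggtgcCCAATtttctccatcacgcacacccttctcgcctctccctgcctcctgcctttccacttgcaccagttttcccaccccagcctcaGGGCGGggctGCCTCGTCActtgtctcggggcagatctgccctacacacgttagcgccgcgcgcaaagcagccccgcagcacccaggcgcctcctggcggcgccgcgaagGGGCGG
PSMB10: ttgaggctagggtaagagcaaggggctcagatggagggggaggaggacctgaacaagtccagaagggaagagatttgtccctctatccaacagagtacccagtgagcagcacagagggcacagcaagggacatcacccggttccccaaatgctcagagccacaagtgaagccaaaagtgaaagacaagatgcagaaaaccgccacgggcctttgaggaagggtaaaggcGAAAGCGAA

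In *PSMB9* the capitals mark the motif CCAAT, the GC box core (GGGCGG) at 2 places and, between these, TGACNNNGC on the opposite strand, and in *PSMB10* they mark GAAANNGAA.

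The replicate number was the third way in which the libraries were compared. The sources used here place the 4 collections of a clone on 1 day, at times that differed, and whether a number marks the same time in the 3 clones is not stated. With group in the model, numbers 3 and 4 differed from numbers 1 and 2 in 23 of 46 genes (50.0%), where the background was 40.8% of all genes. Of the 23, 12 were higher (background 20.7%) and 11 lower (background 20.1%). Among protein-coding genes alone, 24.2% were higher and 20.6% lower. The split of the numbers was taken from earlier results of these data. The model fits each of the 4 numbers, so these p-values measure how libraries vary around the fitted group and number, not how collections vary. Whether numbers 3 and 4 differed by more than collections do in general was not tested. The counts also depended on the scaling. With library totals in place of TMM, 17 proteasome genes were higher and 5 lower, with 6199 and 3242 of all genes. With TMM, the 12 higher were 2 of 7 chaperones, 2 of 6 ATPases, 2 of 3 inducible subunits, 3 of 11 non-ATPase subunits, 1 alpha subunit, 1 beta subunit and 1 activator. The 11 lower were 3 chaperones, 3 non-ATPase subunits, 2 alpha subunits, 1 ATPase, and *PSME4* and *PSMF1* among the activators and inhibitor.

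The largest difference was that of *PSMD9*. Its CPM in replicates 1 to 4 was 65.9, 62.6, 87.6 and 92.9 in Clone 28, 59.8, 57.5, 77.2 and 82.5 in Clone 35, and 48.5, 47.4, 63.2 and 67.9 in Clone 39, all in DMSO. In dTAG-13 it was 70.0, 70.4, 94.7 and 109 in Clone 28, 57.8, 58.4, 68.4 and 86.1 in Clone 35, and 54.5, 52.3, 59.3 and 63.7 in Clone 39. Numbers 3 and 4 were above numbers 1 and 2 in all 6 groups. Their difference for *PSMD9* was 0.43 on the log2 scale (standard error 0.035, adjusted p = 5.70e-16), and it was 0.51, 0.42 and 0.33 in Clones 28, 35 and 39 on their own, past the threshold in each. *PSMD9* lies beside genes that were lower in Clones 35 and 39 than in Clone 28, with medians of -0.24 and -0.25 over 45 tested neighbors within 1 Mb. Another annotated gene on the same strand (ENSG00000256950) covers most of its span, with 99.7% of the span covered by other genes in all, so their reads cannot be told apart.

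*PSMB3*, a beta subunit without a catalytic site, had 34.3, 35.6, 45.2 and 46.4 CPM in the DMSO replicates of Clone 28, 27.9, 29.3, 41.2 and 36.9 CPM in Clone 35 and 30.9, 28.6, 37.9 and 42.0 CPM in Clone 39. In dTAG-13 the values were 32.0, 31.7, 44.4 and 42.5 CPM, 34.2, 32.9, 39.04 and 37.5 CPM, and 30.1, 31.4, 33.1 and 34.2 CPM for the clones in the same order. Numbers 3 and 4 were again above numbers 1 and 2 in 6 of 6 groups, by 0.34 on the log2 scale (standard error 0.047, adjusted p = 3.38e-08), and it passed in each clone alone. *PSMB8* (0.27), *PSMG3* (0.26), *PSMD8* (0.26), *PSMC5* (0.25), *PSMC3* (0.21) and *PSMB9* (0.21) followed. For *PSMC5* the DMSO values were 32.8, 33.5, 48.8 and 42.6 CPM in Clone 28, 42.9, 37.9, 50.1 and 50.0 CPM in Clone 35 and 35.9, 35.5, 39.2 and 45.5 CPM in Clone 39, so that numbers 3 and 4 were above numbers 1 and 2 in each clone. In the dTAG-13 libraries of Clone 35 its numbers overlapped, with 33.9, 41.6, 36.8 and 43.0 CPM. *PSMB8* and *PSMB9* thus differed both between clones and, with the 3 clones together, between numbers. In single clones *PSMB8* passed in none, and *PSMB9* only in Clone 28 (0.51), with 0.043 in Clone 35 and 0.13 in Clone 39. Over the 6 groups *PSMB9* had means of 12.6, 15.8, 16.1 and 16.4 CPM in numbers 1 to 4, so that mainly number 1 was low. *PSMC3IP*, which is no subunit, was higher by 0.37 (standard error 0.057, adjusted p = 3.73e-07).

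In the other direction, *PSME4* had 149, 132, 109 and 123 CPM in the DMSO replicates of Clone 28, 147, 127, 115 and 122 CPM in Clone 35 and 152, 133, 109 and 121 CPM in Clone 39. Replicate 1 was the highest and replicate 3 the lowest in each clone. The log2 fold change of *PSME4* was -0.21 (standard error 0.029, adjusted p = 3.26e-08), and it passed in each clone alone. *PSMA1* had -0.17 (standard error 0.051, adjusted p = 0.00652), *PSMD14* -0.17 (standard error 0.034, adjusted p = 8.49e-05) and *PSMD12*, a non-ATPase subunit of the lid, -0.13 (standard error 0.032, adjusted p = 0.00134). *PSMD5*, *PSMG1*, *PSMA5*, *PSMC6*, *PSMF1*, *PSMG4* and *PSMD1* were lower by 0.08 to 0.12, and *PSMD3*, *PSMD4*, *PSME2* and *PSMA7* higher by 0.11 to 0.14. With library totals in place of TMM, the differences of these lower genes were smaller (*PSMD1* -0.037, *PSMG4* -0.043). Those of these higher genes were larger (*PSMD3* 0.15, *PSME2* 0.18). With 1 library left out, the call of *PSME2* was lost in 12 of 24 fits, that of *PSMD1* in 8, and those of *PSMG1* and *PSMG4* in 6 each.

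The direction went with the length of the gene. The 12 higher genes had a median span of 8496 bp (3674 to 29566 bp) and the 11 lower genes one of 71971 bp (8720 to 138762 bp). The latter median is the span of *PSMG4*, whose canonical span is 9103 bp. By canonical spans the median of the lower genes was 27407 bp, that of *PSMA5*, and the middle pair of the higher genes were *PSMA7* with 6662 bp and *PSMC3* with 7665 bp. Across the 46 genes, Spearman's correlation of span and log2 fold change was -0.567. Across the 14905 protein-coding genes it was -0.464, with a median span of 20510 bp for those called higher and 98814 bp for those called lower. These are descriptions across genes of the same libraries, and genes are not independent replicates. The part of length in the difference between numbers was not tested further. The corresponding correlation across the 46 genes in DMSO was 0.0899 for Clone 39 against 28, 0.18 for Clone 39 against 35 and -0.109 for Clone 35 against 28. Across the protein-coding genes it was 0.0355, 0.144 and -0.149 in the same order.

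**Figure D5:**
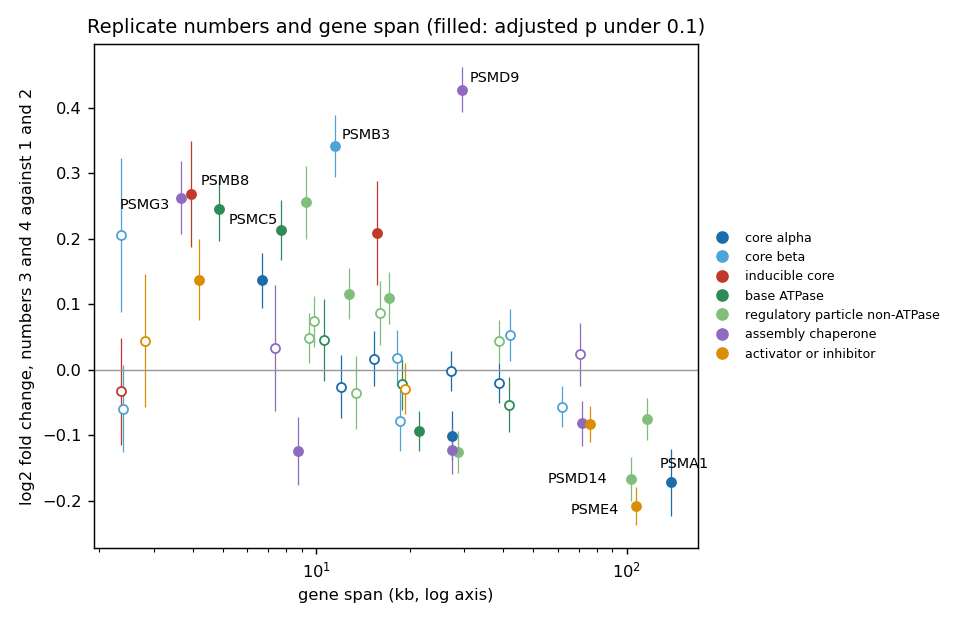
Log2 fold change of replicate numbers 3 and 4 against 1 and 2 for the 46 proteasome genes, with bars of 1 standard error, against gene span in kilobases on a log axis. Filled points passed an adjusted p of 0.1, and of these the 12 above 0 have shorter spans (median 8496 bp) than the 11 below 0 (median 71971 bp).

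The stretches upstream of RefSeq's start sites of *PSMD9* (chr12:121888644-121888731, plus strand) and *PSMB3* (chr17:38752491-38752740, plus strand) are shown because these genes had the largest differences between the numbers. Both hold TGACNNNGC on the strand of the gene, with matches in capitals.
PSMD9: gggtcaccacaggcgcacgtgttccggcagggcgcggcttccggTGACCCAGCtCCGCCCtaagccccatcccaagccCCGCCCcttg
PSMB3: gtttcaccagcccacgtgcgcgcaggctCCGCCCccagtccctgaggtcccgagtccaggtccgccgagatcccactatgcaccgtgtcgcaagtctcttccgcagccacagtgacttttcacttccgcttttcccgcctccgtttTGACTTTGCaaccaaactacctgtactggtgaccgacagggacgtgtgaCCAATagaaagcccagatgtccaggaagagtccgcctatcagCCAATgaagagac

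The remaining capitals mark GGGCGG on the opposite strand (CCGCCC) in both genes and CCAAT in *PSMB3*. Of the 33 other genes of the pathway, 13 passed between the numbers, 7 higher and 6 lower, where the background was 40.8% of all genes. *SEM1*, the smallest subunit of the regulatory particle, was lower by 0.14 (adjusted p = 0.00124), and *ADRM1*, a ubiquitin receptor of the regulatory particle, was higher by 0.10 (adjusted p = 0.0443). *TAP1* was higher (0.18, adjusted p = 0.0109).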

How the data were processed

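The 24 PRO-seq libraries were grouped by the clone and the treatment that their sample labels give. The authors removed adapters, collapsed duplicates with molecular identifiers, removed ribosomal reads, aligned the rest and counted reads in genes. The submitters' processing notes name cutadapt 1.8.1, Bowtie2 2.4.4, SAMtools 1.9 and hg38, and the annotation and strand setting of the counting are not given in the sources used here. The values deposited by the authors are counts, whole reads per gene and library without normalization. Of the 60605 identifiers, 60463 matched GENCODE release 44, which gave symbols, gene types and spans, and 51 of the 101 genes matching the symbol pattern were left out because they are not protein coding. Members and gene lists were chosen with earlier results of these data known.

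The analysis used edgeR 4.0.16 in R 4.3.3 with robust quasi-likelihood fits and TMM factors. The function filterByExpr (minimum count 10, given the 6 groups) left 22326 genes, over which p-values were adjusted by Benjamini and Hochberg's method, with a threshold of 0.1. The model of the 3 clones together had clone and treatment. Single clones, clone differences and the interaction used a mean for each of the 6 groups (18 residual degrees of freedom), and replicate numbers were tested with group in the model. The p-values measure the spread between cultures of one line. For the replicate numbers they measure the spread of libraries around the fitted group and number, and not that between collections. CPM are TMM-scaled and levels per length use the gene span. Libraries of one clone with the same number deviated together from their group means (correlation 0.0926 to 0.318 across genes, above 0.1 in 11 of 12 pairs). The study's methods collect the treatments of a replicate simultaneously, and the sample titles give only a replicate number. Same-numbered libraries of a clone were therefore taken as collected together. The number was used as a block, also between clones, where its meaning is not stated. Same-numbered DMSO libraries of different clones also deviated together (correlation 0.135 to 0.352), so the correlation is not particular to libraries of one clone. Genes named are those past the threshold (at most 10 per comparison in full), the catalytic pairs, activators and inhibitor, the 3 highest and 3 lowest per length, and the smallest p where none passed. The code was tested on simulated counts. Alternatives were RLE factors, library totals, no filter, a minimum of 10 counts per gene in all libraries, DESeq2 1.42.0, a threshold of 0.05, the block, DMSO libraries only, an F-test over the 4 numbers, clones or single libraries left out and, chosen after seeing the data, the clones in their dTAG-13 libraries and the numbers within 1 clone. Some genes of the pathway are counted but not reported here by name, and other assays of the study were not analysed here.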

Additional observations from a re-analysis of the deposited data

Results flagged for a closer look

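Libraries of a group were compared on the log2 scale of CPM. In 7 of 276 groups of 4 libraries (46 genes in 6 groups), the gap between the highest or lowest library and its neighbor took up more of the range than the 95% limit of Dixon's test. About 13.8 such groups would be found by chance. *PSME3* had 55.9 CPM in replicate 1 of Clone 28 in dTAG-13, against 50.6 to 51.4 in the others. In replicate 3 of Clone 28 in DMSO, *PSMA1* had 27.97 CPM against 32.6 to 33.3, and *PSMD12* had 64.3 CPM against 74.3 to 75.4. *PSMD3* had 54.9 CPM in replicate 3 of Clone 35 in DMSO against 61.1 to 61.8. *PSMB5* had 36.7 CPM in replicate 4 of Clone 35 in dTAG-13 against 41.6 to 42.7. *PSMD8* was low in replicate 2 in dTAG-13 of both Clone 28, with 21.9 CPM against 26.7 to 27.6, and Clone 35, with 19.9 CPM against 26.0 to 27.3. None of these genes had a call for dTAG-13.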

How the results depend on the processing

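The count of proteasome genes called for dTAG-13 was 0 under all alternatives run, with the clones together, within each clone and for the difference between clones. The main fit tested 46 of these genes, against 48 with no filter on low counts and 45 with a minimum of 10 counts in all libraries. With the clones together, the median log2 fold change stayed between -0.018 and -0.016 under RLE factors, library totals and the block. Over all genes, the 123 calls for dTAG-13 became 521 with the replicate block, 197 with no filter, 64 at a threshold of 0.05 and 1, 41 and 47 without Clones 28, 35 and 39. The clone comparisons depended more on the setting. For Clone 39 against Clone 28 the 16 genes became 8 with no filter on low counts, 9 at a threshold of 0.05, 8 in the 12 DMSO libraries alone and 9 in the dTAG-13 libraries, and 8 to 17 when 1 library was left out. For Clone 39 against Clone 35 the 4 genes became 2 with no filter, 2 at a threshold of 0.05, 12 with the replicate block and 7 in dTAG-13 with the block. For Clone 35 against Clone 28 the 1 gene became 6 with the block, 0 in the DMSO libraries alone, 0 in the dTAG-13 libraries and 2 there with the block, and 0 to 1 when 1 library was left out, with 0 without Clone 28 replicate 2 or Clone 35 replicate 3 in DMSO. The 23 genes that differed between replicate numbers became 12 in Clone 28, 5 in Clone 35 and 5 in Clone 39 alone, where fewer libraries enter, and *PSMD3* had -0.0020 in Clone 35 alone, opposite to the 3 clones together. The block left the count of 0 proteasome genes for dTAG-13 unchanged. RLE factors gave the same 16 genes for Clone 39 against Clone 28, and DESeq2 gave 13, of which 12 were among the 16, without *PSMA4*, *PSMA5*, *PSMA7* and *PSME1*. Without division by length, the median percentile of the genes' level was 63.9 instead of 82. For the other changes the cause was not tested. Depth limited *PSMB6*, *PSMA8* and *PSMB11* most.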
